A study of Mus musculus with 6 samples.

Results

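Notch receptors, their ligands and their direct target genes were followed through the response of C3H10T1/2 cells to BMP4, over every probe set that the platform annotation assigns to Notch1, Notch2, Notch3, Notch4, Jag1, Jag2, Hes1, Hey1, Heyl or Nrarp. These 10 genes have 21 of the 45101 probe sets on the array, with 9 for receptors, 5 for ligands and 7 for targets. Probe sets of 1 gene measure RNA of that gene, though not always the same transcript, and are not replicates of each other. C3H10T1/2 is an established mouse mesenchymal cell line whose cells can become fat, cartilage, bone or muscle. The 3 BMP4 samples came from cells given 50 ng/ml BMP4, a secreted bone morphogenetic protein, as they proliferated. The 3 control samples came from cells handled alike with no BMP4, and total RNA of both was taken once the cultures were past confluence. Whether replicates came from separate cultures is not in the labels, so the p-values rest on a spread that may be only technical.

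Notch receptors are transmembrane proteins that are cut when a Delta or Jagged ligand on a neighbouring cell binds them. The freed intracellular part enters the nucleus, joins the DNA-binding protein RBPJ and a Mastermind coactivator, and switches on genes that include the transcriptional repressors of the Hes and Hey families and the feedback inhibitor Nrarp. In mesenchymal cells the pathway is known for its part in the choice between progenitor, adipocyte, bone, cartilage and contractile cell fates, and BMP signalling can act on some of the same Hes and Hey genes.

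Values are linear signal intensities, with a 2% trimmed mean of 150 on all 6 arrays. Probe sets for Bacillus genes, which have no counterpart in mouse RNA, reached at most 29.1 on any array, and this value is used as background. Between 56% and 59% of the mouse probe sets lay above it on the BMP4 arrays, and between 54.4% and 55.7% on the control arrays. All 7 mesenchymal markers examined were above background on all 6 arrays, and 1 of them, the receptor Pdgfra, was lower with BMP4 (log2 change -0.90, limma adjusted p = 6.34e-05). The endothelial markers Pecam1 and Tie1 and the leukocyte marker Ptprc were at most 6.6 on any array. Of 7 endothelial markers 1 was above background on all 6 arrays, namely Tek, a receptor for angiopoietins. Tek had 75.2, 66.7 and 52.3 in BMP4 cells, against 128.9, 98.2 and 115.7 in control cells (log2 change -0.69, limma adjusted p = 0.0167). Kdr, Cdh5 and Emcn gave log2 changes of -0.32, 0.04 and 0.15, none past the test (adjusted p = 0.457, 0.949 and 0.752). The summed signal of the 7 markers ranged from 155.8 to 287.8 in BMP4 cells and from 238.5 to 286.5 in control cells. Of 6 blood and macrophage markers 3 were above background on all arrays (sums of 226.8 to 353.2 in BMP4 cells and 220.6 to 259.5 in control cells). They averaged 141.2 in BMP4 and 126.1 in control cells for Csf1r, 43.7 and 41.9 for Cd68, and 57.4 and 41 for Adgre1. Of 5 epithelial markers 2 were, Epcam and Krt8 (sums of 332.7 to 568.2 in BMP4 cells and 445 to 542 in control cells). Most of this sum was Epcam, on 1447899_x_at, a name that marks probes that can match other transcripts. Cdh1 and Krt18 were under background on every array, and Krt19 was above it on 1 BMP4 array. The part of these markers in the Notch results was not tested. Precision is limited by having 3 arrays in a group.

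Of the 21 probe sets, 14 from 9 genes passed the filter on low signals and were tested with limma. Among them 3 were higher and 1 was lower in BMP4 cells at an adjusted p of 0.05. Over all 27022 probe sets tested, 4.20% were higher and 4.91% were lower, or 9.12% in both directions together. The members were chosen with earlier results of these data known, so their counts beside these shares are a description only. With each array centred on its median, 25.1% of all calls were higher, against 46.1% as deposited, and 2 member probe sets were higher and 1 was lower. The genes that changed were Notch1 and Hes1, which rose, and Notch3, which fell. The median log2 change of the 14 probe sets was 0.21, beside 0.03 for all probe sets tested. At 8 of the 14 the BMP4 and control arrays did not overlap, against 28.2% of all probe sets tested. Those 8 belong to Notch1, Notch3, Jag1 and Hes1 alone. Both the median and this count take genes with several probe sets more than once. The 7 probe sets left out by the filter belong to Notch4, Jag2, Hey1, Heyl and Nrarp, and Hey1 has no other. In RNA from whole cultures, fewer expressing cells and less RNA per cell cannot be told apart.

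**Figure D1:**
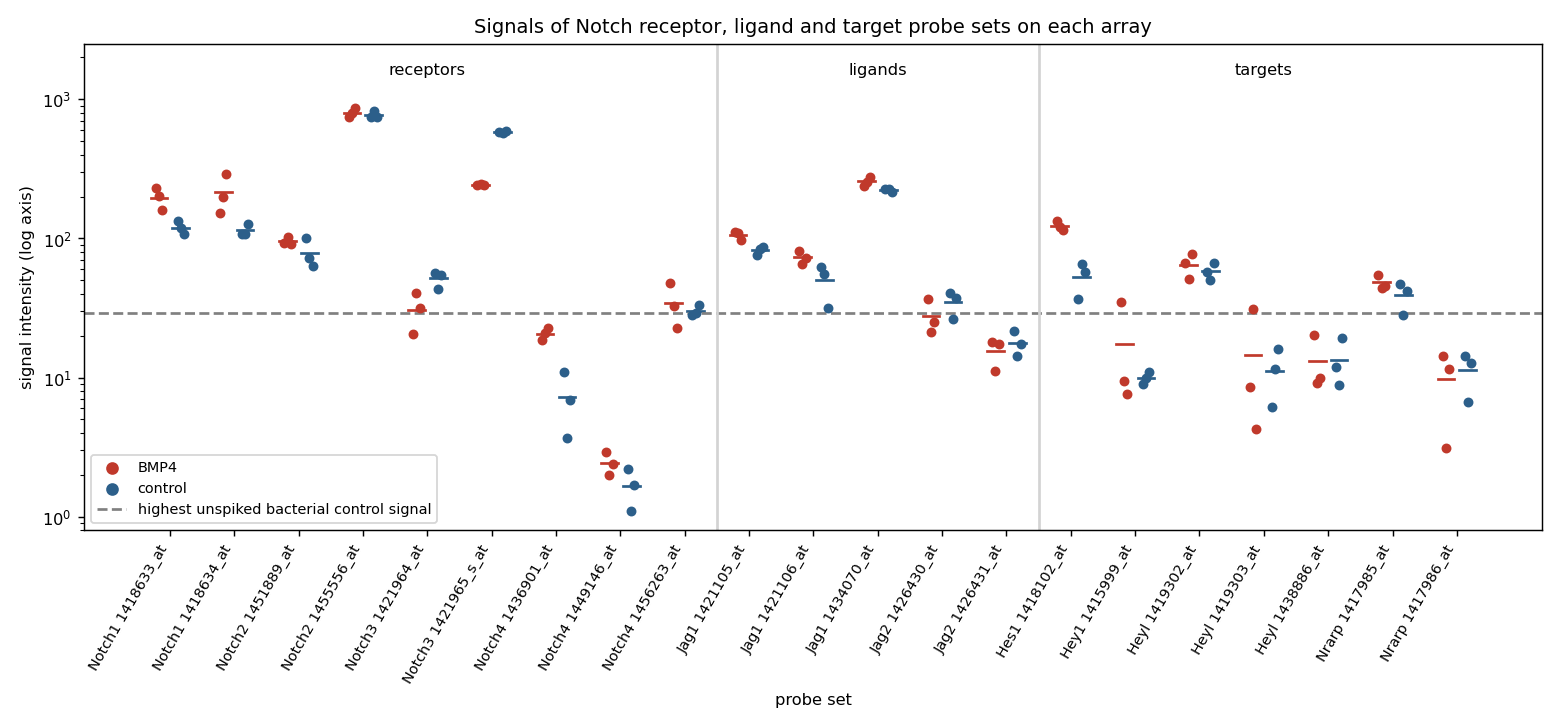
Signal intensity (log axis) of each of the 21 probe sets, BMP4 arrays in red and control arrays in blue, with a point per array, a bar at the group mean and a dashed line at the background of 29.1. The groups stand apart at both Notch1 probe sets, both Notch3 probe sets, all 3 Jag1 probe sets, Hes1 and, under background, Notch4 1436901_at, while most Hey1 points and the dimmer Heyl and Nrarp probe sets lie at or under background.

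Notch3, the receptor best known from vascular smooth muscle and pericytes, was the receptor that fell. Probe set 1421965_s_at had signals of 241.9, 247.3 and 242.8 in BMP4 cells, against 581.7, 568.4 and 595.9 in control cells. Both groups were tight and far apart, with means of 244 ± 2.89 in BMP4 cells and 582 ± 13.8 in control cells (SD, n = 3 each). The log2 change was -1.20 ± 0.07 (SE; limma adjusted p = 1.72e-06), with a 95% interval of -1.35 to -1.05. Its name marks probes that more than 1 transcript can share. The dimmer Notch3 probe set 1421964_at had signals of 20.5, 40.4 and 31.5 in BMP4 cells, against 56.5, 43.3 and 55 in control cells. Here too every BMP4 array lay below every control array, as at 13.2% of all probe sets tested, but the log2 change of -0.55 ± 0.20 was not past the test (limma adjusted p = 0.133), and 1 BMP4 array was under background. The size of the fall therefore rests on the brighter probe set.

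Notch1, a receptor widely used in stem and progenitor cells, was higher with BMP4 on both of its probe sets. Probe set 1418633_at gave 229.2, 200.8 and 160.9 in BMP4 cells, against 133.5, 118.6 and 107.4 in control cells. The log2 change was 0.64 ± 0.13 (SE; limma adjusted p = 0.0119). Probe set 1418634_at gave 151.6, 200 and 291.2 in BMP4 cells, against 107.3, 107.6 and 128 in control cells. The log2 change there was 0.78 ± 0.18 (limma adjusted p = 0.0233). On both probe sets the 3 BMP4 arrays were above the 3 control arrays, as at 15.0% of all probe sets tested. Yet the order of the BMP4 arrays was opposite, with replicate 1 highest on the first and lowest on the second. The call of 1418634_at was lost without BMP4 replicate 2 (adjusted p = 0.0571), BMP4 replicate 3 (0.0502), control replicate 1 (0.0873) or control replicate 2 (0.0768), with each array centred on its median (0.0572) and without the filter (0.07). Without the intensity trend of limma, neither Notch1 probe set passed (adjusted p = 0.0527 for 1418633_at and 0.0941 for 1418634_at).

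The other receptors were not past the test. Notch2, a receptor with wide expression in mesenchyme, had signals of 741.3, 794.7 and 865.7 in BMP4 cells and 748.1, 829.7 and 751.4 in control cells on its brighter probe set 1455556_at. The groups overlapped, and the log2 change of 0.04 had a 95% interval of -0.13 to 0.21 (limma adjusted p = 0.799). The dimmer 1451889_at gave 0.25 (95% interval -0.10 to 0.60, adjusted p = 0.394). Notch4, a receptor known from endothelium, was near or under background. Its probe set 1456263_at had 47.7, 32.5 and 22.8 in BMP4 cells and 28.2, 29.2 and 33.5 in control cells, a log2 change of 0.09 (95% interval -0.38 to 0.56, adjusted p = 0.847). Another Notch4 probe set, 1436901_at, lay between 18.5 and 22.7 in BMP4 cells and between 3.7 and 11 in control cells, so the groups did not overlap, but every value was under background and no fold is given. The last, 1449146_at, did not exceed 2.9 on any array.

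The promoters of the receptor gene that rose and the receptor gene that fell are shown because the pair moved in opposite directions. The sequences are the 250 bases before the start site on the gene's own strand, from RefSeq on GRCm38.p6, at chr2:26503823-26504072 (minus strand) for Notch1 and chr17:32166891-32167140 (minus strand) for Notch3. Capitals would mark matches to the motifs named next, and neither window holds one.
Notch1: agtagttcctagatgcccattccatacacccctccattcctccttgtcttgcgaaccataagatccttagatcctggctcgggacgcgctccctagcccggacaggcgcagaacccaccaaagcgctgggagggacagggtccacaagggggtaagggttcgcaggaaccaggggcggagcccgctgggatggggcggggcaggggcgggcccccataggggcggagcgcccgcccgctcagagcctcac
Notch3: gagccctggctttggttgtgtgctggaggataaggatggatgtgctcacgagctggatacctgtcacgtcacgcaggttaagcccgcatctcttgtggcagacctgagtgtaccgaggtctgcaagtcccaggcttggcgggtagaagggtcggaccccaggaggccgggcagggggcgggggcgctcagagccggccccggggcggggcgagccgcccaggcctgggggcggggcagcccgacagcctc
GC content was 66% in the Notch1 window and 68.8% in the Notch3 window. The search covered 4 motifs on both strands: TGGGAA, the core bound by RBPJ, CACGTG and CACGCG, bound by Hes and Hey type factors, and GGCGCC, bound by BMP-activated Smads. Promoter windows were found for 7 of the 10 genes, and not for Hes1, Hey1 and Heyl. Among the other windows, CACGCG or its reverse complement occurred once in Notch2 and at 2 places in Jag1, and CACGTG occurred once in Nrarp, with no overlap between matches. Of all 32851 RefSeq windows, 21.6% held TGGGAA, 6.02% CACGTG, 7.62% CACGCG and 9.59% GGCGCC. These matches describe letters in a short window and say nothing of binding.

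Jag1, a transmembrane ligand of Notch receptors, did not pass the test on any of its 3 probe sets. Probe set 1434070_at had 240.3, 255.9 and 275.5 in BMP4 cells, against 226.2, 226.7 and 217.6 in control cells. Probe set 1421105_at had 110.8, 109 and 98.1 in BMP4 cells, against 76.3, 84.7 and 86.2 in control cells. Probe set 1421106_at had 81.2, 65.3 and 72.9 in BMP4 cells, against 62.6, 55.8 and 31.7 in control cells. At all 3 the BMP4 arrays lay above the control arrays, which 15.0% of all probe sets tested did. The log2 changes were 0.19, 0.31 and 0.46 in that order, with limma adjusted p-values of 0.21, 0.159 and 0.199. Their 95% intervals ran from 0.005 to 0.37, from 0.04 to 0.58 and from 0.02 to 0.90. Unlike the p-values, these intervals are not adjusted for the number of probe sets tested. With each array centred on its median, the 3 log2 changes were 0.094, 0.215 and 0.367 in the same order (limma adjusted p = 0.645, 0.337 and 0.284). The share of probe sets above background was also higher on the BMP4 arrays, and its part in these small differences was not tested. The second ligand, Jag2, was close to background. Its probe set 1426430_at had 36.8, 21.4 and 25.2 in BMP4 cells and 40.4, 26.5 and 37.2 in control cells, with overlapping groups and a log2 change of -0.22 (95% interval -0.68 to 0.24, adjusted p = 0.59). The other, 1426431_at, stayed between 11.2 and 18 in BMP4 cells and between 14.2 and 21.7 in control cells.

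Hes1, a helix-loop-helix repressor and the most general of the Notch targets, was the target that rose. Its only probe set, 1418102_at, had signals of 134.4, 121 and 114.5 in BMP4 cells, against 36.8, 65.1 and 57 in control cells. The groups were well apart, with means of 123 ± 10.1 in BMP4 cells and 53 ± 14.6 in control cells (SD, n = 3 each), and all values were above background. Every BMP4 array lay above every control array, as at 15.0% of all probe sets tested. The log2 change was 1.03 ± 0.17 (SE; limma adjusted p = 0.00306), with a 95% interval of 0.66 to 1.41. The size depends on the constant added before taking logs, since it was 1.19 with 4 and 0.69 with 64 in place of 16, while the call held with both (adjusted p = 0.00395 and 0.00201).

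The other targets were dim and did not pass. Nrarp, an ankyrin repeat protein that limits Notch signalling, had 54.9, 44.2 and 45.8 in BMP4 cells and 47.4, 28 and 41.8 in control cells on 1417985_at, a log2 change of 0.24 (95% interval -0.18 to 0.65, limma adjusted p = 0.503). Heyl, a hairy-related repressor, had 66.8, 51.1 and 77.1 in BMP4 cells and 57.3, 50.4 and 67.1 in control cells on 1419302_at, a log2 change of 0.12 (95% interval -0.26 to 0.50, adjusted p = 0.737). The groups overlapped for both genes. Hey1, its relative, had 35.1, 9.4 and 7.6 in BMP4 cells and 9, 9.9 and 11 in control cells, so that 1 BMP4 array stood above background, while the other two were under it like all 3 control arrays. A dim Heyl probe set, 1419303_at, likewise had 1 high BMP4 array, at 8.5, 31 and 4.3 in BMP4 cells against 6.1, 11.6 and 16 in control cells. The high array was BMP4 replicate 1 for Hey1 and BMP4 replicate 2 for Heyl. The remaining Heyl and Nrarp probe sets were under background on all 6 arrays, with at most 20.1 for 1438886_at and 14.4 for 1417986_at. For Hey1 a change could not be judged at this signal.

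**Figure D2:**
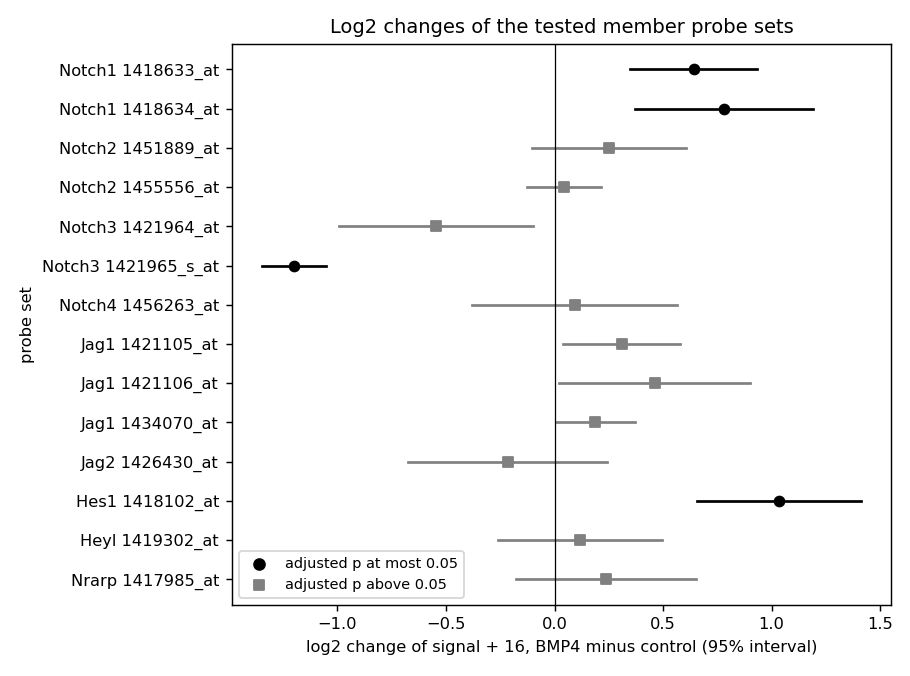
Log2 change of signal + 16, BMP4 minus control, with its 95% interval from limma, for the 14 tested probe sets, black where the adjusted p was at most 0.05 and grey otherwise. Notch3 1421965_s_at lies far to the left, Hes1 and both Notch1 probe sets lie to the right, and the 3 Jag1 intervals lie just right of 0. The intervals are not adjusted for the number of probe sets tested.

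Beyond these genes, 73 other genes of the pathway were listed, of which 67 had a named probe set and 58 passed the filter, each represented by its probe set of highest mean. Among the 58, 6 rose and 5 fell, where 5.03% of all 12966 genes tested were higher and 5.66% lower (10.7% in all). The median log2 change was 0.03 in the list and 0.03 over all genes. This list, too, was chosen with earlier results of these data known, and its counts are a description only.

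Among 8 other ligands and ligand-like proteins 1 rose and 2 fell. Dlk1, a Delta-like protein that lacks the receptor-binding domain of classical ligands and marks preadipocytes, had signals of 499.9, 544.4 and 634.1 in BMP4 cells, against 271.7, 204.7 and 198.8 in control cells. Dlk1 thus rose by 1.26 ± 0.12 on the log2 scale (SE; limma adjusted p = 7.88e-05). The name of its probe set, 1449939_s_at, marks probes that more than 1 transcript can share. The microfibril glycoproteins Mfap2 and Mfap5, which have been reported to bind Notch or Jagged proteins, fell on their brighter probe sets. Mfap2 had 36.6, 15 and 40.7 in BMP4 cells, against 142, 154.8 and 123.4 in control cells (log2 change -1.78, adjusted p = 0.000439). Its BMP4 mean of 30.8 was close to background, and BMP4 replicate 2 was under it. The size of the Mfap2 fall depends on the constant added before taking logs, at -2.14 with 4 and -1.11 with 64 in place of 16. A second Mfap2 probe set, also near background, gave 0.17 (adjusted p = 0.638). Mfap5 had 264.3, 231.5 and 228.5 in BMP4 cells, against 358.9, 317.1 and 345.2 in control cells (log2 change -0.47, adjusted p = 0.0058), and -0.35 on its other probe set (adjusted p = 0.0703). The classical ligands Dll1, Dll3 and Dll4 gave -0.16, -0.29 and 0.24, none past the test (adjusted p = 0.659, 0.647 and 0.535).

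Genes of receptor processing mostly did not pass. Of 5 glycosyltransferases that modify Notch receptors 0 rose and 0 fell by limma, the smallest p belonging to Mfng, a Fringe enzyme (log2 change 0.45, adjusted p = 0.371). A second probe set of its relative Rfng, named after its value was seen, gave -0.47 (adjusted p = 0.0149), against -0.10 on the brighter one (adjusted p = 0.544). Of 8 genes of receptor cleavage 1 rose, namely Aph1b, a gamma-secretase subunit. Aph1b had 335.1, 336 and 324 in BMP4 cells, against 242.4, 268 and 255.2 in control cells, a log2 change of 0.36 (adjusted p = 0.0124), with 0.20 on another probe set (adjusted p = 0.334). Its call was lost without control replicate 1 (adjusted p = 0.0563), with median centring (0.0941) and without the intensity trend (0.0592).

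Among 12 genes of ligand endocytosis and receptor turnover 1 fell, Dtx4, a ubiquitin ligase of the Deltex family that acts on Notch receptors. Dtx4 had signals of 204.6, 218.9 and 175.2 in BMP4 cells, against 498.6, 517.6 and 490.7 in control cells. The log2 change was -1.27 ± 0.09 (SE; limma adjusted p = 8.6e-06), and a second probe set gave -0.63 (adjusted p = 0.00733). Numb, which antagonises Notch, gave -0.07 (adjusted p = 0.615), and Mib1, which drives ligand endocytosis, 0.06 (adjusted p = 0.73).

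Of 15 nuclear complex and corepressor genes 1 fell, Rbpj itself, the DNA-binding partner of cleaved Notch. Rbpj had 746.6, 738.4 and 795 in BMP4 cells, against 1016.5, 1051 and 871.5 in control cells on 1448957_at, which is -0.36 ± 0.08 on the log2 scale (SE; limma adjusted p = 0.0181). This call was lost without the intensity trend (adjusted p = 0.105) and without BMP4 replicate 1 (0.0514), BMP4 replicate 2 (0.0664), control replicate 1 (0.0677) or control replicate 2 (0.0854). A second Rbpj probe set, 1454896_at, gave -0.43 (adjusted p = 0.00116), and a dimmer one, 1418114_at, gave -0.36 (adjusted p = 0.182). The Mastermind coactivator Maml2 gave 0.63 (adjusted p = 0.0863) and Maml1 0.01 (adjusted p = 0.962). Of the other Hes and Hey factors only Hes6 passed the filter, at -0.14 (adjusted p = 0.439), while Hes2, Hes3, Hes5, Hes7 and Hey2 were below it.

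**Figure D3:**
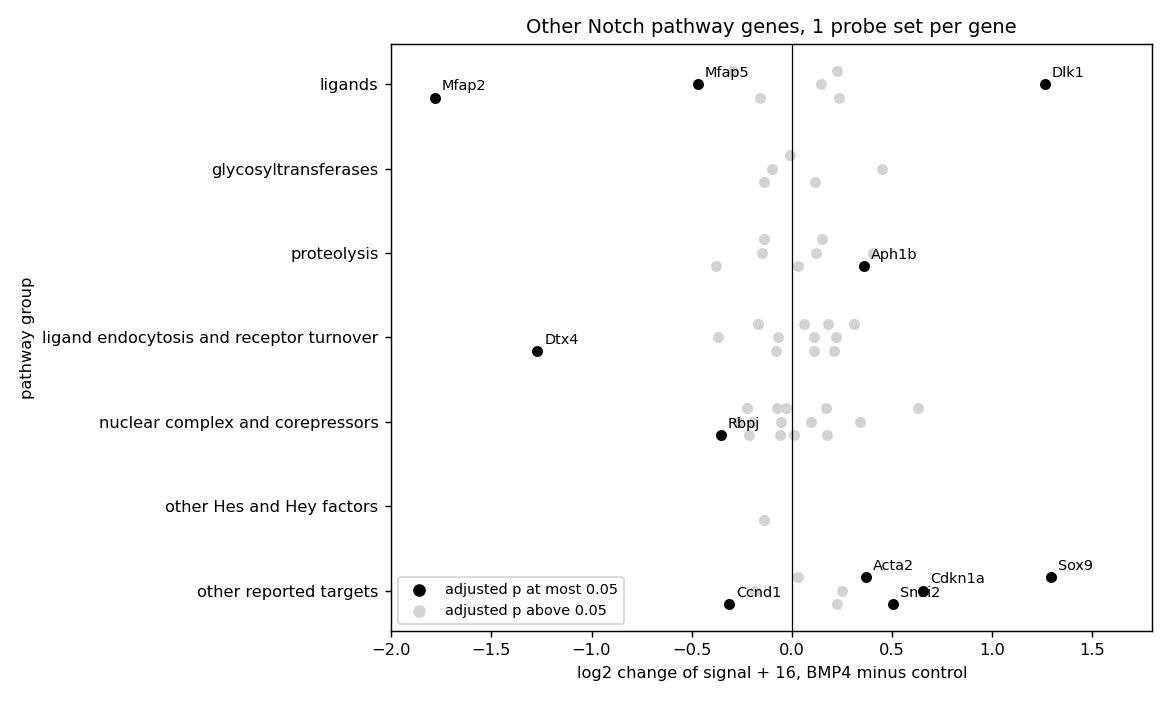
Log2 change of signal + 16, BMP4 minus control, of the 58 other pathway genes by role, 1 point per gene, black and named where the adjusted p was at most 0.05. Dlk1 and Sox9 lie furthest right and Mfap2 and Dtx4 furthest left, with most genes near 0.

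Genes reported as Notch targets in other settings were mixed, with 4 of 9 higher and 1 lower. Over all 12966 genes tested, 5.03% were higher and 5.66% lower. The list was chosen with earlier results of these data known, so its counts are a description and no test of enrichment. Sox9, the factor that directs cartilage formation, had 877.8, 1014.5 and 1117 in BMP4 cells, against 403.9, 404.2 and 385.3 in control cells (log2 change 1.29, limma adjusted p = 6.52e-06), with 1.26 (adjusted p = 0.000208) and, near background, -0.10 (adjusted p = 0.812) on other probe sets. Cdkn1a, an inhibitor of cyclin-dependent kinases, rose by 0.66 (adjusted p = 0.000565), against 0.34 on a dimmer probe set (adjusted p = 0.11). Snai2, a zinc finger repressor, rose by 0.50 on 1447643_x_at (adjusted p = 0.0179) and by 0.37 on the dimmer 1418673_at (adjusted p = 0.0298). The name of the brighter Snai2 probe set marks probes that can match other transcripts. For Acta2, a contractile actin, the rise was 0.37 (adjusted p = 0.0329) on 1416454_s_at, whose name marks probes that more than 1 transcript can share. Ccnd1, which encodes cyclin D1, fell by 0.32 on the log2 scale (adjusted p = 0.04), with -0.28 and -0.16 on other probe sets (adjusted p = 0.0716 and 0.283). The calls of Snai2, Acta2 and Ccnd1 were not stable: Snai2 was lost when either of BMP4 replicates 1 and 2, or control replicate 2, was left out (adjusted p up to 0.0742). Acta2 was lost without any 1 array except BMP4 replicate 3 and control replicate 3 (adjusted p up to 0.117), and Ccnd1 without any 1 array except BMP4 replicate 3 (adjusted p up to 0.117). All 3 were also lost without the filter and without the intensity trend, and Snai2 and Acta2 with median centring. Acta2 is also a smooth muscle marker, and the summed signal of 6 smooth muscle and pericyte markers ranged from 5400.2 to 5953.2 in BMP4 cells, against 4034.3 to 4865.5 in control cells. Most of this sum is Acta2 itself, with mean signals of 5374 in BMP4 cells and 4163 in control cells, and it was the 1 marker of the 6 past the test. Tagln averaged 46.1 in BMP4 cells and 46.9 in control cells, and Myh11 and Cnn1, which define mature smooth muscle, were at most 16.5 on any array. Cspg4 averaged 290.7 in BMP4 cells and 251.1 in control cells, with overlapping groups (log2 change 0.21, limma adjusted p = 0.233). Rgs5 averaged 40.1 in BMP4 cells and 28.0 in control cells, also with overlap (log2 change 0.34, adjusted p = 0.37). The part of these markers in the Notch3 result was not tested.

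**Figure D4:**
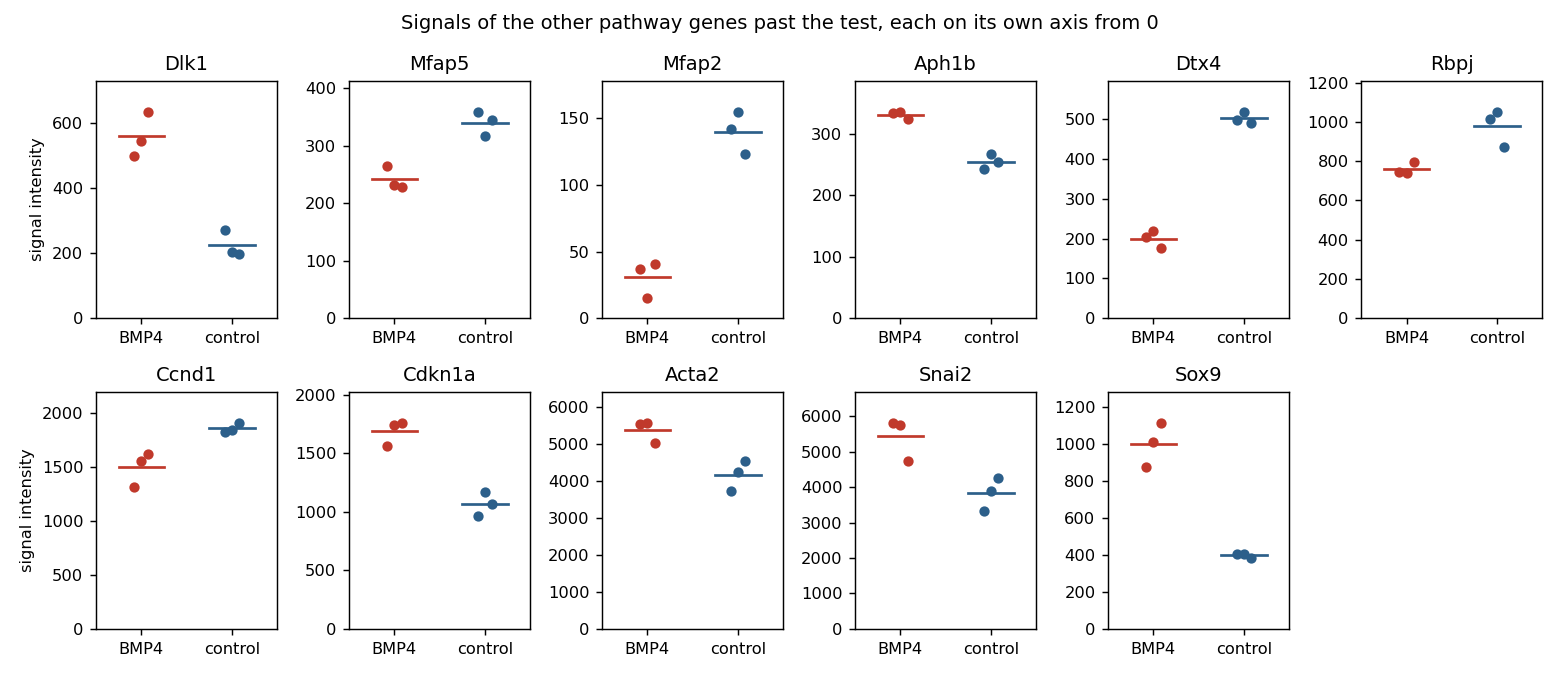
Signal intensity on each array for the 11 other pathway genes past the test, BMP4 arrays left in red and control arrays right in blue, with a bar at the mean and each axis starting at 0. In each panel the groups do not overlap, which choosing the genes by the test makes likely. Dlk1, Mfap2, Dtx4 and Sox9 show the widest gaps.

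The genes whose values over the 6 arrays lay nearest to those of each changed member were found by the root mean square difference of log2 values, each gene centred on its control mean, among 12957 genes. For Notch3 they were Spon2, Adamts5 and Ccn5, at differences of 0.06, 0.07 and 0.08. For Notch1 (1418634_at) they were Ercc6l, 4930579G24Rik and Asns, at 0.12, 0.13 and 0.15. For Hes1 they were Ccnb2, Cdca2 and Gas2l3, at 0.14, 0.15 and 0.16. The measure describes likeness in size and array pattern over these samples.

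**Figure D5:**
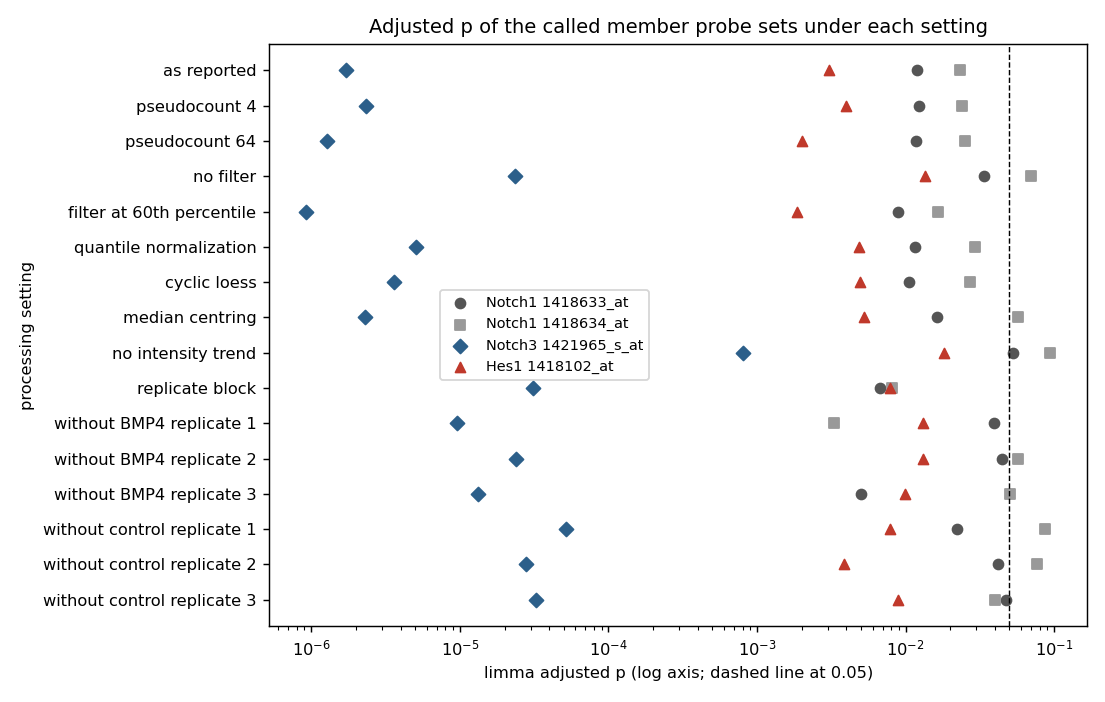
Adjusted p from limma (log axis) of the 4 called member probe sets as reported and under 15 other processing settings, with a dashed line at 0.05. Notch3 1421965_s_at and Hes1 lie left of the line in every setting shown, Notch1 1418633_at crosses it without the intensity trend, and Notch1 1418634_at crosses it in 7 settings.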

How the data were processed

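Total RNA of 3 BMP4 and 3 control samples was labelled with biotin and hybridised to 1-colour arrays, with groups and replicate numbers taken from the sample titles. The authors deposited linear signal intensities, and the submitters' processing notes name GCOS 1.3 as the software. Its settings for scaling and background were not given in the sources used here. Scaling to equal trimmed means assumes an equal total signal on each array. Symbols came from the platform annotation, in which 34958 probe sets have 1 symbol, 932 several and 9211 none. Only probe sets with 1 symbol were named.

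Tests used log2(signal + 16) without the 64 control probe sets. A probe set was kept if its mean was above the 40th percentile (a signal of 23.45), which left 27022. The test was that of limma 3.58.1 under R 4.3.3 (lmFit and two-sided eBayes, intensity trend on), adjusted by Benjamini-Hochberg over all of them with a threshold of 0.05. The added 16 makes log2 changes of dim genes smaller than they are. Errors of log2 changes are moderated SE. The test was also run on simulated data with the same spread at every probe set, which cannot check the intensity trend.

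The members and gene lists were chosen with earlier results of these data known. Named are all members, every called gene of the pathway list, the gene with the smallest p in a group with none, and the 3 genes nearest to each called member. Dll1, Dll3, Dll4, Numb, Mib1, Maml1, Maml2 and further probe sets of named genes were added after their values were seen. Alternatives were other pseudocounts, filters and normalizations, no intensity trend, a replicate block and leaving out each array.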

Additional observations from a re-analysis of the deposited data

How the results depend on the processing

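Over all probe sets, 1136 were higher and 1328 lower, and with each array centred on its median 632 were higher and 1890 lower, so that 25.1% of calls were higher against 46.1% as deposited. Without the intensity trend 659 were higher and 763 lower. Leaving out 1 array gave 768 to 945 higher and 845 to 1063 lower. Of the member probe sets 3 were called higher, 2 with median centring or without the filter, 1 without the intensity trend, and 2 to 3 when 1 array was left out, while 1 was called lower under all 15 settings. Notch3 1421965_s_at ranged from -1.30 to -1.07 and Hes1 from 0.69 to 1.19 over those settings, with both calls kept. In the pathway list 3 genes were higher and 8 lower with median centring, 3 and 3 without the intensity trend, and 4 to 7 and 3 to 5 when 1 array was left out. With all kept probe sets of the list counted in place of genes, 8 probe sets were higher and 8 lower, some of them of the same gene. Values near 0 changed sign: Notch2 1455556_at was -0.0525 with median centring and -0.0146 to 0.0951 when 1 array was left out. Notch4 1456263_at was -0.00645 with quantile normalization, -0.00103 with cyclic loess, -0.00213 with median centring and -0.0922 to 0.265 when 1 array was left out. Same-numbered samples did not deviate together (correlations of 0.0102, -0.00261 and -0.0725 for replicates 1, 2 and 3), and BMP4 samples 1, 2 and 3 correlated best with control samples 3, 3 and 2. The replicate number as a block gave 985 higher and 1105 lower probe sets, left 3 members higher and 1 lower, and lost Acta2 (adjusted p = 0.0729). Dim probe sets such as Hey1, Notch4 and Jag2 are limited by signal over background.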
